A study of Mus musculus with 6 samples.

Results

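Transforming growth factor beta (TGF-beta) signalling was described here through 10 genes: the ligands Tgfb1, Tgfb2, Tgfb3 and Inhba, the receptors Tgfbr1, Tgfbr2 and Tgfbr3, and the intracellular mediators Smad2, Smad3 and Smad7. They were taken by gene symbol from a deposited table of 34745 mouse genes, and all 10 were found, each in 1 row. RNA was sequenced from tumours that the mouse hepatoma line Hep1-6 had formed under the skin of C57BL/6J mice. There were 3 tumours from mice labelled as fed a high cholesterol diet (HCD) and 3 from mice labelled as fed a normal diet (ND), with no further treatment or genotype in the labels. The labels give neither age nor sex, nor do they say whether the 3 tumours of a diet were taken from separate mice, so the tests reflect only how far these samples lie apart. Because the injected cells are 1 line growing with host cells in bulk tissue, fewer cells of a type and less RNA per cell cannot be told apart in any value below.

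TGF-beta ligands are secreted as latent dimers that integrins and proteases release from the matrix. The active ligand binds TGFBR2, which recruits and phosphorylates TGFBR1, and TGFBR1 then phosphorylates SMAD2 and SMAD3, which enter the nucleus with SMAD4 and regulate target genes. SMAD7 is itself induced by the pathway and blocks the receptor, while TGFBR3, also called betaglycan, presents ligand, TGF-beta 2 above all, to the signalling receptors. In liver cells the pathway restrains growth, and in tumours it is also known for driving matrix production, loss of epithelial features and suppression of lymphocytes.

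Promoter windows, from 250 bases before to 50 bases after the annotated start, are shown for Smad3, which was lower in HCD without overlap, and for Tgfb1 and Tgfb2, the ligands with the highest and the lowest level. The sequences are RefSeq's on GRCm38.p6, from chr9:63757945-63758244 on the minus strand for Smad3, chr7:25686752-25687051 on the plus strand for Tgfb1 and chr1:186705940-186706239 on the minus strand for Tgfb2. Capitals mark CAGAC or its reverse complement GTCTG, the core of the SMAD-binding box, and GGGCGG or its reverse complement CCGCCC, the GC box read by SP1.
Smad3: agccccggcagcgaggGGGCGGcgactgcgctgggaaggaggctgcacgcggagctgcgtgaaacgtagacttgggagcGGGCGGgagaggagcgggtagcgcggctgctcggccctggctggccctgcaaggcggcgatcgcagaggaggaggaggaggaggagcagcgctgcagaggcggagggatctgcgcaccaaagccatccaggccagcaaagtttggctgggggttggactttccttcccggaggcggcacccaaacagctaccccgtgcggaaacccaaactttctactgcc
Tgfb1: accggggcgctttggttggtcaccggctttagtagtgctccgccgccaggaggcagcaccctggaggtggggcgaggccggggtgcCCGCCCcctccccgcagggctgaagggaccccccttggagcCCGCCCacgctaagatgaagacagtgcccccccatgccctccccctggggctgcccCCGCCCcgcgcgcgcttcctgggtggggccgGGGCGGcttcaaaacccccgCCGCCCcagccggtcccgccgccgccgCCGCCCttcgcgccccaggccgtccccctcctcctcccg
Tgfb2: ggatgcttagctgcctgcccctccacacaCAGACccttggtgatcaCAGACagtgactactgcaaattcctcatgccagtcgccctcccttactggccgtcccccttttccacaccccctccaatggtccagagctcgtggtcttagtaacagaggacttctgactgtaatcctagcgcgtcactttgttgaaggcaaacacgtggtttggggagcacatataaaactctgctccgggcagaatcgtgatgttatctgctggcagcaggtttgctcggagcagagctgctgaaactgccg
The Tgfb1 window held 6 GC boxes and 0 CAGAC boxes at a GC content of 77%, the Smad3 window held 2 GC boxes and 0 CAGAC boxes at 67.7%, and the Tgfb2 window held 0 GC boxes and 2 CAGAC boxes at 54.3%. Among all 32851 windows of 300 bases, 49.6% held CAGAC or GTCTG and 35.7% held a GC box, and the median GC content was 52.7%. These matches are counts of letters in a window and say nothing of binding.

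Levels are given in FPKM, fragments counted per gene, scaled to gene length and library size, which can be compared between genes as far as the authors' gene lengths allow. Tgfbr2 had the highest mean over the 6 tumours at 26.7 FPKM, followed by Tgfb1 (22.4), Smad2 (22.3), Tgfbr1 (20.3), Smad3 (18.7), Smad7 (11.1), Tgfb3 (3.43), Tgfbr3 (1.22), Inhba (0.872) and Tgfb2 (0.240). From Tgfbr2 down to Smad3 each gene's range over the libraries overlapped that of the next, although Tgfbr2 lay above Tgfb1 in 6 of 6 libraries. Smad3 and Smad7 did not overlap, nor did Smad7 and Tgfb3, or Inhba and Tgfb2. Tgfbr3 lay above Inhba in 4 of 6 libraries. The mean of Tgfbr2 lay at percentile 88.0 of the 13417 genes tested, that of Smad7 at 70.2, that of Tgfb3 at 37.9 and that of Inhba at 9.27. The gene length implied for Smad7 was 7727 bases, against 4521 bases in GENCODE M21, so its level would be 1.71 times higher with the M21 length. The same factor was 1.57 for Tgfb2, 1.40 for Tgfbr1, 1.13 for Tgfb1 and 1.03 for Smad3. At the implied length closest to M21 it was 1.20 for Smad2 and 1.17 for Tgfbr2. The order among genes of close level thus rests on the authors' lengths, and with M21 lengths Tgfbr1 would gain on Tgfb1, Smad2 and Tgfbr2. The gaps between Smad3 and Smad7 and between Inhba and Tgfb2 rest on them too, since with M21 lengths these ranges would overlap.

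Library sizes implied by the steps of the values were 20351637 to 20918325 fragments in HCD and 20622728 to 26228073 fragments in ND, and 11495 to 12050 genes reached 1 FPKM in a library. Skeletal muscle markers summed to 916 FPKM in HCD 1 and 827 FPKM in ND 2, against 5.35 to 90.1 FPKM in the other libraries; without HCD 1 and ND 2 together, a choice made after seeing the data, 7 of the 9 members again had a lower mean in HCD and 0 were called.

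**Figure D1:**
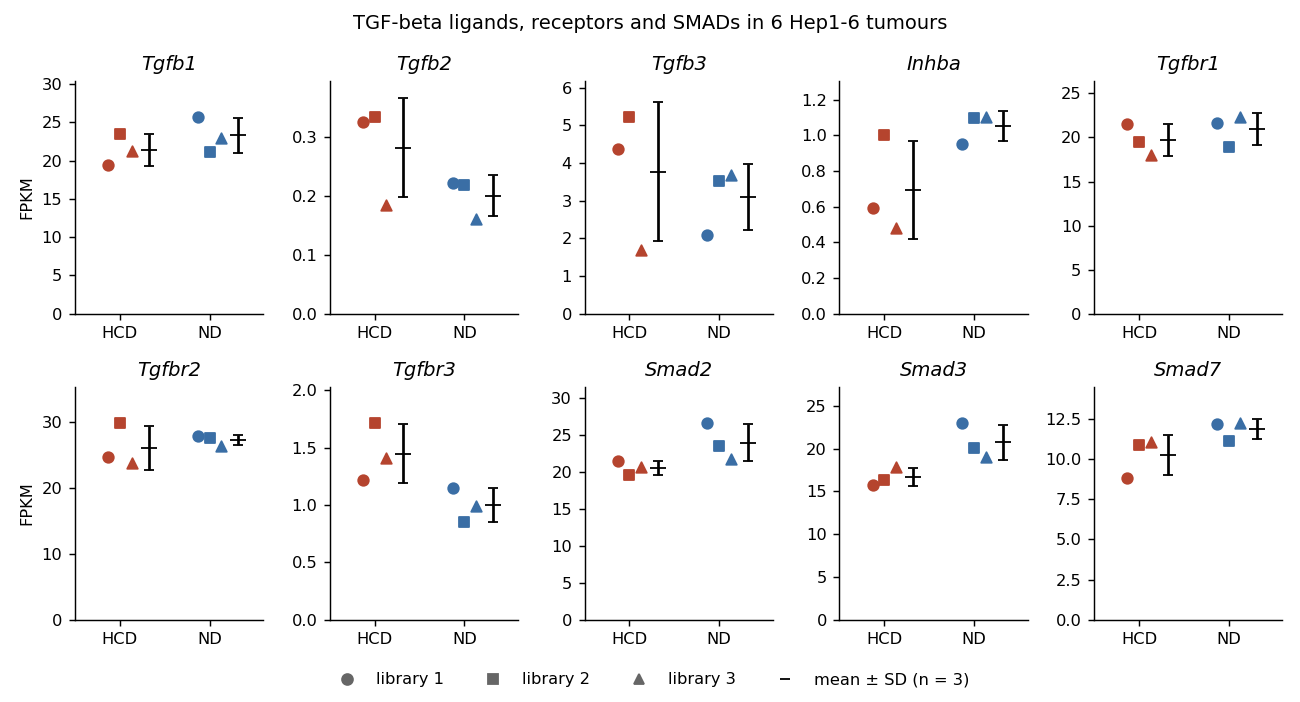
FPKM of each of the 10 genes (y axis, from 0, a scale of its own per gene) in the 3 HCD and 3 ND tumours (x axis); points are libraries and bars are the mean ± SD. Smad2, Smad3 and Smad7 lie lower and Tgfbr3 higher in HCD tumours without overlap, by margins that are narrow for Smad2 and Smad7; the Smad7 groups overlap with median-ratio or upper-quartile scaling.

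The comparison of HCD with ND tumours asks whether expression in the tumour differs with dietary cholesterol. No member passed the test. Of the 9 members with a mean of at least 0.5 FPKM, limma called 0 at an adjusted p of 0.05, and their adjusted p ranged from 0.794 to 0.918. Limma called 0.0% of the 13417 genes tested in either direction, with 789 genes (5.88%) at an unadjusted p under 0.05, among them 2 members; limma-voom, run on reads recovered from the FPKM, called 0 as well and had 701 genes at that unadjusted level. Log2 differences (log2(FPKM + 1), HCD minus ND) were below 0 for 7 of the 9 members, with a median of -0.12, where 44.3% of all genes tested were below 0 and their median was 0.02. Without HCD 2 or without ND 1, 1 member in place of 2 had a positive difference, because Tgfb3 turned negative. Among the 9, groups did not overlap for 3 members lower in HCD and 1 higher, where 6.13% of all genes tested were lower and 5.98% higher without overlap.

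The SMADs that carry the signal had lower means in HCD tumours. Gene positions are given on GRCm38 from GENCODE M21. Smad3, an activator phosphorylated by the receptor (chromosome 9, 63646767 to 63757994), was at 15.8, 16.4 and 17.9 FPKM in HCD 1 to HCD 3, against 23.0, 20.1 and 19.1 FPKM in ND 1 to ND 3. Every HCD library lay below every ND library, and ND 1 stood highest. The means were 16.7 ± 1.10 FPKM in HCD and 20.7 ± 2.07 FPKM in ND (SD, n = 3 each), so that the HCD mean was 80.5% of the ND mean. The log2 difference was -0.29 (SE 0.087, 95% interval -0.51 to -0.08), but its limma adjusted p over all genes was 0.794. The value ranged from -0.35 to -0.22 with each library left out in turn, and -0.22 was the value without ND 1. Between 1840 and 3020 reads a library lay behind Smad3.

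Smad2, the other receptor-activated SMAD of the pathway (chromosome 18, 76241580 to 76310963), was at 21.5, 19.7 and 20.7 FPKM in HCD 1 to HCD 3, against 26.7, 23.5 and 21.8 FPKM in ND 1 to ND 3. The groups did not overlap, yet HCD 1 and ND 3 lay next to each other, and ND 1 was again the highest library. The log2 difference was -0.21 (SE 0.085, 95% interval -0.41 to 9.5e-05), with a limma adjusted p of 0.794, and it was -0.13 without ND 1. With the authors' gene lengths Smad2 stood above Smad3 in all 6 libraries, at 1.15 to 1.37 times its FPKM in HCD tumours and 1.14 to 1.17 times in ND tumours. More than 1 implied length of Smad2 gave whole reads, so this order need not hold with M21 lengths.

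Smad7, the inhibitory SMAD and a target of the pathway (chromosome 18, 75367529 to 75395935), was at 8.83, 10.9 and 11.0 FPKM in HCD 1 to HCD 3, against 12.2, 11.1 and 12.3 FPKM in ND 1 to ND 3. HCD 1 was the lowest library, and HCD 3 (11.05) and ND 2 (11.12) nearly met. With median-ratio or upper-quartile scaling of the libraries the Smad7 groups overlapped, while those of Smad2, Smad3 and Tgfbr3 still did not. The log2 difference was -0.20 (SE 0.096, 95% interval -0.43 to 0.03, limma adjusted p = 0.794), and -0.10 without HCD 1.

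Receptor levels lay close together in both diets, apart from Tgfbr3. Tgfbr2, the ligand-binding kinase (chromosome 9, 116084293 to 116175360), was at 24.7, 29.97 and 23.8 FPKM in HCD 1 to HCD 3, against 27.9, 27.6 and 26.5 FPKM in ND 1 to ND 3. HCD libraries lay on both sides of the ND libraries, which were nearly equal. The log2 difference was -0.07 (95% interval -0.29 to 0.16, limma adjusted p = 0.872), and it ran from -0.17 without HCD 2 to -0.0042 without HCD 3. Tgfbr1, the kinase that phosphorylates SMAD2 and SMAD3 (chromosome 4, 47353222 to 47414931), was at 21.6, 19.5 and 18.0 FPKM in HCD 1 to HCD 3, against 21.7, 18.9 and 22.4 FPKM in ND 1 to ND 3. These groups overlapped as well, with a log2 difference of -0.09 (95% interval -0.31 to 0.14, limma adjusted p = 0.845), which ran from -0.16 without ND 2 to -0.026 without HCD 3.

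Tgfbr3, the co-receptor (chromosome 5, 107106570 to 107289629), was at 1.21, 1.72 and 1.41 FPKM in HCD 1 to HCD 3, against 1.15, 0.854 and 0.993 FPKM in ND 1 to ND 3. All 3 HCD libraries lay above the ND libraries, with HCD 2 the highest and HCD 1 close to ND 1. The HCD mean was 145% of the ND mean, with 1.45 ± 0.253 FPKM in HCD and 0.999 ± 0.147 FPKM in ND (SD, n = 3 each). The log2 difference was 0.29 (SE 0.111, 95% interval 0.02 to 0.56), with a limma adjusted p of 0.794. At this level the added 1 FPKM shrinks the difference: limma-voom on recovered reads, 160 to 274 per library, gave 0.54. Gm42900, at a mean of 0.367 FPKM, overlaps Tgfbr3 on the same strand, and how any shared reads were counted is not given. The 10 endothelial markers had 10 of 10 higher means in HCD, with a summed level of 70.0 to 126 FPKM in HCD and 57.8 to 74.8 FPKM in ND. Their sum was highest in HCD 2, as was Tgfbr3, but the other libraries were ordered differently. ND 1 had the lowest sum and the most Tgfbr3 of the ND libraries. The sum in ND 3 (74.8 FPKM) lay above those in HCD 1 (72.2 FPKM) and HCD 3 (70.0 FPKM). The part of endothelial cells in the Tgfbr3 difference was not tested.

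**Figure D2:**
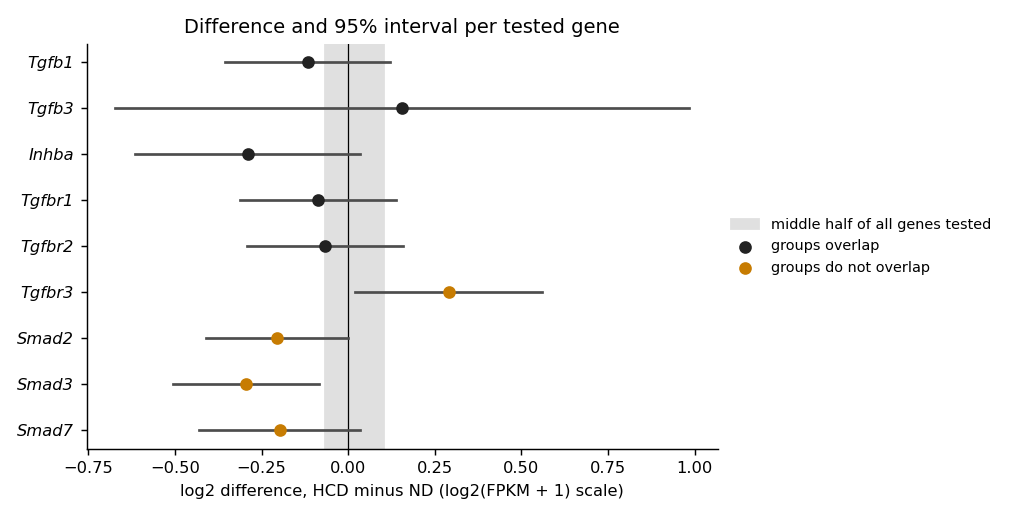
Log2 difference (x axis, log2(FPKM + 1), HCD minus ND) and its 95% interval for the 9 tested members (rows); the grey band spans the lower to upper quartile of all genes tested, -0.07 to 0.10. Intervals, not adjusted for the number of genes, lie wholly below 0 for Smad3 and wholly above 0 for Tgfbr3; no member was called after adjustment.

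Among the ligands Tgfb1 made up most of the transcript. Tgfb1, the main isoform of immune and stromal cells (chromosome 7, 25687002 to 25705077), was at 19.4, 23.5 and 21.3 FPKM in HCD 1 to HCD 3, against 25.8, 21.2 and 23.0 FPKM in ND 1 to ND 3. The groups overlapped, and the log2 difference was -0.12 (95% interval -0.36 to 0.12, limma adjusted p = 0.812). Leaving out ND 1 gave -0.046 and leaving out HCD 1 gave -0.052, whereas either HCD 2 or ND 2 left out gave -0.18. Its summed level with Tgfb2 and Tgfb3 was 23.2 to 29.1 FPKM in HCD and 24.9 to 28.1 FPKM in ND.

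Tgfb3, an isoform typical of mesenchymal cells (chromosome 12, 86056745 to 86079041), varied most of the 10 genes, with 3.09 times between its lowest and highest library. It was at 4.37, 5.24 and 1.70 FPKM in HCD 1 to HCD 3, against 2.08, 3.53 and 3.68 FPKM in ND 1 to ND 3. Both ends of the range, HCD 2 and HCD 3, were HCD tumours, and the log2 difference of 0.16 had a 95% interval of -0.67 to 0.98 (limma adjusted p = 0.918). The libraries with the lowest Tgfb3, HCD 3 and ND 1, also had the lowest summed markers of several cell types in their diet. In HCD 3 and ND 1 these were 438 and 277 FPKM for macrophages, 24.2 and 7.82 for T cells and 70.0 and 57.8 for endothelium. Skeletal muscle markers were lowest there as well (6.61 and 5.35 FPKM), with their highest sum in HCD 1. Other sums did not follow: fibroblast and mural markers were lowest of the HCD libraries in HCD 3 (813 FPKM) but highest of the ND libraries in ND 1 (1007 FPKM). Hepatocyte and hepatoma markers were highest of their diet in HCD 3 and ND 1 (2222 and 2097 FPKM). HCD 2 had the highest macrophage (1034 FPKM), T cell (57.1 FPKM) and endothelial (126 FPKM) sums. ND 2 exceeded ND 3 in macrophage markers (631 against 520 FPKM) but not in Tgfb3. The part of these cells in the Tgfb3 values was not tested. Ttll5, a gene at 0.764 FPKM, overlaps Tgfb3 on the opposite strand, and reads of the pair cannot be told apart if strand was not used in counting.

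Tgfb2, the isoform that depends most on TGFBR3 (chromosome 1, 186622792 to 186705989), was below the level for testing. It was at 0.324, 0.334 and 0.184 FPKM in HCD 1 to HCD 3, against 0.221, 0.218 and 0.160 FPKM in ND 1 to ND 3, from 30 to 62 reads a library. HCD 3 lay among the ND libraries.

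Inhba encodes the beta A subunit of activin A, a ligand that signals through activin receptors to the same SMAD2 and SMAD3 (chromosome 13, 16011851 to 16031621). It was at 0.593, 1.00 and 0.481 FPKM in HCD 1 to HCD 3, against 0.953, 1.10 and 1.11 FPKM in ND 1 to ND 3. HCD 1 and HCD 3 lay below all ND libraries, and HCD 2 lay between ND 1 and ND 2. The HCD mean was 65.7% of the ND mean, the lowest such share of the 10 genes, with 0.691 ± 0.274 FPKM in HCD and 1.05 ± 0.086 FPKM in ND (SD, n = 3 each). The log2 difference was -0.29 (SE 0.133, 95% interval -0.61 to 0.03, limma adjusted p = 0.794), and limma-voom on recovered reads gave -0.68. A shorter length also gave whole reads for Inhba, so the read counts behind the limma-voom value are not settled.

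Ratios within a library, which do not depend on how libraries are scaled, overlapped between the diets in all 3 comparisons. Tgfb1 made up 80.5%, 80.9% and 91.9% of the summed FPKM of Tgfb1, Tgfb2 and Tgfb3 in HCD 1 to HCD 3, against 91.8%, 85.0% and 85.7% in ND 1 to ND 3. The share was highest in HCD 3 and ND 1, the libraries with the least Tgfb3, and the means were 84.4% ± 6.46 in HCD and 87.5% ± 3.75 in ND (SD, n = 3 each; exact two-sided permutation p = 0.6, adjusted 0.9). With the authors' gene lengths Tgfbr2 exceeded Tgfbr1 in all 6 libraries. M21 lengths would raise Tgfbr1 1.40 times and, at the implied length closest to M21, Tgfbr2 1.17 times, so this order need not hold in every library. A shorter length of Tgfbr2 also gave whole reads, and from that length M21 would lower Tgfbr2 instead. A change of length would shift the log2 ratio equally in both diets. With the authors' lengths it was 0.41 ± 0.21 in HCD and 0.38 ± 0.15 in ND (SD, n = 3 each, exact permutation p = 0.9, adjusted 0.9). The log2 ratio of Smad7 to the sum of Smad2 and Smad3 was -1.87 ± 0.19 in HCD and -1.91 ± 0.16 in ND (SD, n = 3 each; exact permutation p = 0.9, adjusted 0.9). With 3 against 3 libraries the p cannot go below 0.1.

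**Figure D3:**
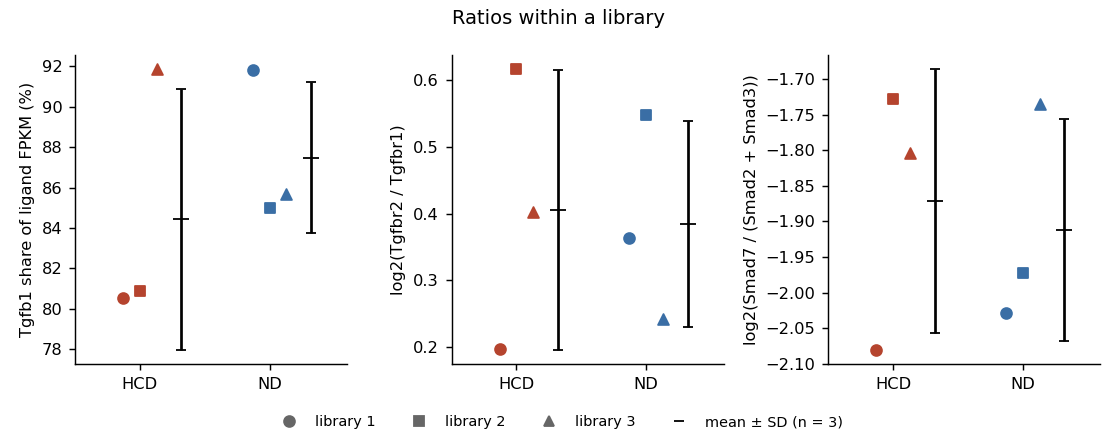
Ratios within each library (y axes, not starting at 0) for the 3 HCD and 3 ND tumours (x axis); points are libraries and bars are the mean ± SD. The diets overlap in all 3 panels, and the Tgfb1 share is highest in HCD 3 (91.9%) and ND 1 (91.8%).

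The wider pathway was described through 6 lists holding 101 tested genes, each counted once. Of these, 45 were higher on average in HCD, 56 were lower and 0 were called by limma. The balance rested on single libraries: it was 58 higher and 43 lower without HCD 3, 33 and 68 without HCD 2, and 51 and 50 without ND 1. Over all genes tested, beside which each list below can be read, 55.7% were higher on average in HCD and 44.3% lower. Limma put 5 of the 101 at an unadjusted p under 0.05, against 5.88% of all genes tested. Unless said otherwise, genes are named below for the highest mean or the lowest p of their list. A low p favours groups without overlap, which 12.1% of all genes tested had. Among genes of TGF-beta latency, storage and activation 7 of 15 tested were higher on average in HCD and 8 lower (4 higher without HCD 1, without HCD 2 or without ND 2), with a median log2 difference of -0.02. Itgav, the integrin chain that frees latent TGF-beta, was at 27.0 ± 0.773 FPKM in HCD and 33.7 ± 3.71 FPKM in ND (SD, n = 3 each), without overlap (log2 difference -0.31, limma adjusted p = 0.794). Plat, a plasminogen activator, was at 140 ± 7.32 FPKM in HCD and 176 ± 21.8 FPKM in ND (SD, n = 3 each), also without overlap (-0.33, adjusted p = 0.794), and Itgb1, a partner chain of Itgav, differed by -0.09. Chosen after their values were seen, Thbs1, an activator of latent ligand, differed by 0.30, and Lrrc32, which docks latent ligand on regulatory T cells, by 0.05; the Lrrc32 difference turned to -0.06 without HCD 1 and -0.05 without ND 2. Ltbp1, the classical latent ligand binding protein, was below the level for testing at a mean of 0.243 FPKM.

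Among co-receptors and receptor regulators 11 of 17 were higher on average in HCD and 6 lower, with a median log2 difference of 0.07. Nedd4l, a ubiquitin ligase that acts on SMAD2 and SMAD3, was at 7.78 ± 0.561 FPKM in HCD and 9.31 ± 0.844 FPKM in ND (SD, n = 3 each). Zfyve9, which anchors SMAD2 and SMAD3 at endosomes, was at 7.37 ± 0.538 FPKM in HCD and 8.36 ± 0.298 FPKM in ND. Nedd4l and Zfyve9, named for the lowest p of their list, were both without overlap, at limma adjusted p of 0.794. Hsp90aa1 differed by 0.08 and Strap, a SMAD7 partner, by -0.03. Eng, an endothelial co-receptor chosen after its values were seen, differed by 0.41 (adjusted p = 0.794) and like the endothelial markers was highest in HCD 2, at 9.38 FPKM. Without HCD 2 the Eng difference was 0.15, and without ND 1 it was 0.27.

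Among the other SMADs and their partners 9 of 17 were higher on average in HCD and 8 lower, with a median log2 difference of 0.01. Smad4, the common partner of SMAD2 and SMAD3, was at 20.0 ± 0.974 FPKM in HCD and 20.96 ± 1.53 FPKM in ND (SD, n = 3 each), with overlap (log2 difference -0.07, limma adjusted p = 0.847). Smad6, the inhibitory SMAD of the BMP branch, was higher in HCD without overlap, at 3.98 ± 0.394 FPKM in HCD and 3.39 ± 0.211 FPKM in ND (difference 0.18, adjusted p = 0.794). Sp1 differed by -0.11 and Ppm1a, a SMAD phosphatase, by 0.01, which turned to -0.0054 with upper-quartile scaling. In the activin, inhibin and follistatin list 3 of 7 tested were higher on average and 4 lower (5 and 2 without HCD 1 or without HCD 3), with a median of -0.05. Fst, the activin antagonist follistatin, stood far above Inhba, at 58.0 ± 10.3 FPKM in HCD and 55.0 ± 12.5 FPKM in ND (SD, n = 3 each; log2 difference 0.09), and Fstl1 differed by -0.10. The activin receptors Acvr1b and Acvr2a differed by -0.16 and 0.16 (limma adjusted p = 0.794 each). In the BMP branch 4 of 13 were higher on average and 9 lower, with a median of -0.07; Id2 and Id1, targets of BMP signalling, differed by -0.10 and -0.15, Bmpr1a by -0.16 and Gdf15 by 0.33.

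TGF-beta target genes were divided. Of 36 tested, 13 were higher on average in HCD and 23 lower, where 55.7% of all genes tested were higher and 44.3% lower. Their median log2 difference was -0.05, with a range of -0.63 to 0.44. The count of target genes rested on single libraries: without HCD 3 it was 21 higher and 15 lower, and without HCD 2 it was 6 higher and 30 lower. Fn1, the matrix protein fibronectin, was at 375, 324 and 343 FPKM in HCD 1 to HCD 3, against 490, 374 and 426 FPKM in ND 1 to ND 3. HCD 1 lay just above ND 2, and the log2 difference was -0.30 (limma adjusted p = 0.794). Sparc, another matrix protein, differed by 0.05. Ctgf, a usual reporter of the pathway, and Spp1 and Tgfbi, the ends of the range, were chosen after their values were seen. Ctgf was at 30.4 ± 7.70 FPKM in HCD and 34.8 ± 6.80 FPKM in ND (SD, n = 3 each), lowest in HCD 1. The Ctgf log2 difference was -0.20 (limma adjusted p = 0.844), but -0.0038 without HCD 1, -0.06 without ND 3 and -0.37 without HCD 2. Spp1 differed by -0.63 and Tgfbi by 0.44 (adjusted p = 0.794 each); leaving out each library gave -0.83 (without HCD 3) to -0.40 (without ND 1) for Spp1, and 0.28 (without HCD 2) to 0.63 (without ND 2) for Tgfbi.

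**Figure D4:**
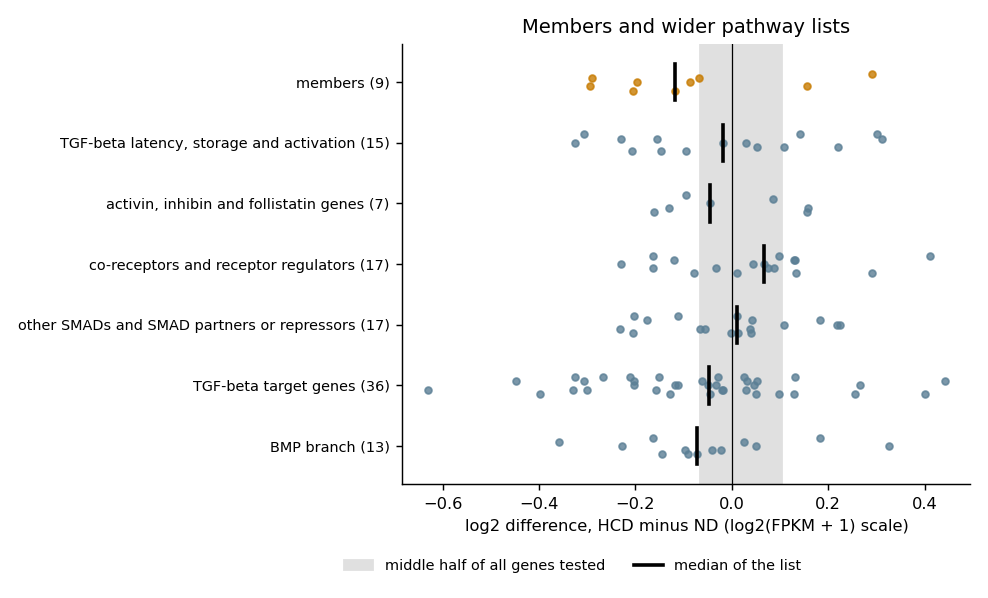
Log2 difference (x axis, log2(FPKM + 1), HCD minus ND) of each tested member and of the genes of 6 wider pathway lists (rows, number tested in brackets; points are genes and black bars medians); the grey band spans the lower to upper quartile of all genes tested. List medians lie between -0.07 and 0.07, and the members' median is -0.12.

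The highest library was ND 1 for Tgfb1, Smad2 and Smad3, and ND 3 for Tgfbr1, Smad7 and Inhba. For Tgfbr2, Tgfb3, Tgfbr3 and Tgfb2 it was HCD 2. How often each library was highest over all genes tested was not counted. ND 1 had the lowest summed macrophage markers (277 FPKM, against 520 to 631 FPKM in ND 2 and ND 3) and T cell markers (7.82 FPKM, against 29.1 to 33.5 FPKM), and HCD 2 the highest (1034 and 57.1 FPKM); their part in the members' values was not tested. On average 9 of 9 tested T cell markers and 8 of 10 macrophage markers were higher in HCD, but 1 of 7 neutrophil markers. Neutrophil markers summed to 40.1 to 42.9 FPKM in HCD, and to 98.5, 41.8 and 105.6 FPKM in ND 1 to ND 3; ND 1 and ND 3 were also the highest libraries for Smad7. Fibroblast and mural markers summed to 813 to 1053 FPKM in HCD and 878 to 1007 FPKM in ND, and hepatocyte and hepatoma markers to 1580 to 2222 FPKM in HCD and 1745 to 2097 FPKM in ND. The part of these cells in the SMAD differences was not tested. The genes most like each member over the 6 libraries, by Pearson r of log2(FPKM + 1) among 6679 other genes at 5 FPKM or more, were Smc5 and Adgra2 for Smad3 (r = 0.996 and 0.994), Lrp6 and Magt1 for Smad2 (0.993 and 0.989), Rictor and Gprc5a for Smad7 (0.998 and 0.996) and Pitpnb and Erdr1 for Tgfbr3 (0.989 and 0.982). For the receptors and ligands they were Serpina3n for Tgfbr1 (0.999), Macf1 for Tgfbr2 (0.979), Rab5a for Tgfb1 (0.986), Rsrp1 for Tgfb3 (0.985) and Tial1 for Inhba (0.983). These values are the highest of 6679 over only 6 libraries, which differ in depth and in marker sums, and they are given as a description.

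**Figure D5:**
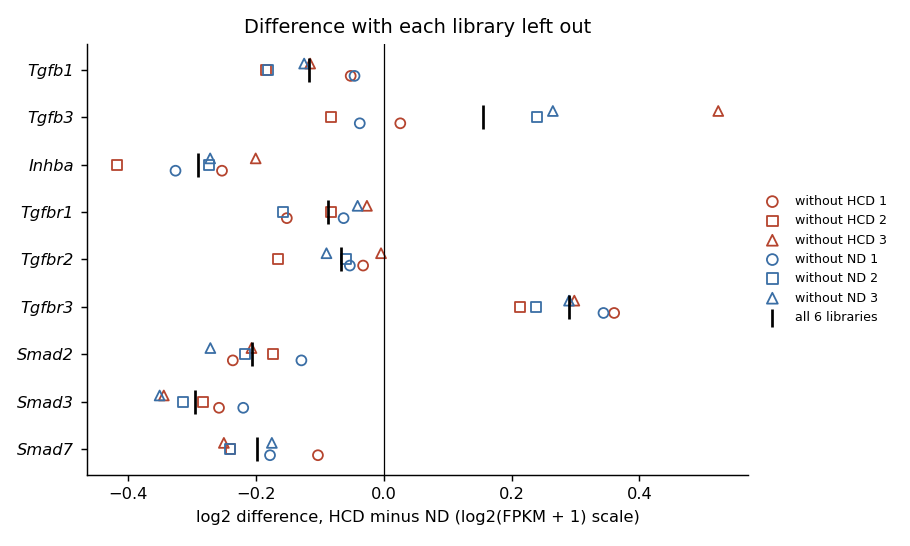
Log2 difference of each tested member (x axis, log2(FPKM + 1), HCD minus ND) with all 6 libraries (bars) and with each library left out in turn (open symbols). Tgfb3 runs from -0.08 to 0.52 and is the only member whose sign changes.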

How the data were processed

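The 6 tumours, 3 HCD and 3 ND, were grouped by their titles. The authors deposited FPKM values in a single table, and its header gives each sample a column. Per the submitters' processing notes, the tools were CASAVA 1.8 and TopHat2 2.0.9 with HTSeq and edgeR, on mm10; their roles, strand use and the annotation release are not given in the sources used here. All 13417 genes whose mean reached 0.5 FPKM were fitted on log2(FPKM + 1) in limma 3.58.1 (R 4.3.3), with diet as the only term and a variance trend; p-values are two-sided and were adjusted by the Benjamini-Hochberg method. The script was checked on simulated data. That scale understates the change of low genes. The members and lists were chosen with earlier results of these data known, and no list was tested.

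Of each pathway list the 2 tested genes with the highest mean and the 2 with the lowest p were named, since none was called; genes named otherwise are said to be. The deposited symbols Ctgf and Hfe2 were matched to Ccn2 and Hjv through RefSeq synonyms. The steps of the FPKM values gave whole reads, within 0.02 of a read, for 98.66% of tested genes, against 0.0% of 1500 decoys. These reads served for depth and for limma-voom, which took their sum in each library as the scale. Genes without recovered whole reads, Fn1 and Itgb1 among them, were not part of that sum. For Smad2, Tgfbr2 and Inhba a shorter length also gave whole reads, so their reads are not printed. Positions are from GENCODE M21 on GRCm38, the assembly of mm10. Alternatives were a pseudocount of 0.1, no filter, median-ratio and upper-quartile scaling, the replicate number as a block, limma-voom and leaving out each library.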

Additional observations from a re-analysis of the deposited data

How the results depend on the processing

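Limma called 0 genes higher and 0 lower under every alternative run, except S100a9, no member, lower without ND 2; the genes at an unadjusted p under 0.05 numbered 390 to 1274, and leaving out each library gave 0 to 1 genes lower. No single-gene value of the 9 members and 27 named pathway genes passed an adjusted p of 0.05 in limma under any alternative run, which were 13 a gene, except that limma-voom was not run for Itgb1 and Fn1, whose whole reads were not recovered. Leaving out each library gave 1 to 2 members with a positive difference. Over those omissions the log2 difference of Tgfb3 ranged from -0.082 to 0.52, and of the named genes 7 changed sign: Fst (-0.087 to 0.24), Fstl1 (-0.39 to 0.27), Id2 (-0.22 to 0.028), Lrrc32 (-0.06 to 0.21), Ppm1a (-0.026 to 0.044, the upper value without HCD 1 and ND 2 together), Sparc (-0.13 to 0.17) and Strap (-0.068 to 0.011). Ppm1a was -0.0054 with upper-quartile scaling, and Lrrc32 was -0.16 without HCD 1 and ND 2 together; the cause was not tested. The difference in the log2 ratio of Tgfbr2 to Tgfbr1 was 0.02, from -0.085 to 0.13 over the omissions, and that of Smad7 to Smad2 plus Smad3 was 0.04, from -0.030 to 0.15. The Tgfb1 share differed by -3.06 percentage points, from -6.79 to -0.903.

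Replicate numbers showed no clear pairing of the samples, though so few samples cannot exclude a pairing. Deviations from the group means correlated at -0.19, 0.14 and 0.06 for equal numbers, and from -0.52 to 0.53 for different ones. With the replicate block 0 genes were called, with 753 at an unadjusted p under 0.05 against 789 without it, and the Smad3 difference was -0.29 (limma adjusted p = 0.794). The 95% interval was widest for Tgfb3 among the 9 members, and Tgfb2 and Inhba rest on few reads.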
